A study of Mus musculus with 33 samples.

Results

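The 10 genes described here are markers of microglia, the resident macrophages of the brain: Aif1, Cx3cr1, P2ry12, Tmem119, Csf1r, Itgam, Cd68, Trem2, C1qa and C1qb. They were chosen by symbol. All 10 of the 23366 genes in each of the 2 count tables that carry one of these symbols were found, and all 10 passed the filter on low counts in both tables.

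RNA-Seq was measured in frontal cortex of C57BL/6 mouse offspring at an age of about 1 month, 1 library per animal. Dams and their pups had been exposed by whole-body inhalation, before and after birth, to filtered air or to aerosol of a tobacco-flavored e-cigarette, whose liquid held either 13 to 16 mg/mL nicotine or no nicotine. The female table held 6 air exposed controls, 5 animals exposed with nicotine and 5 exposed without nicotine. The male table held 6 air exposed controls, 6 animals exposed with nicotine and 5 exposed without nicotine. All animals carried the same genetic background, and the aerosol groups shared the device and the flavor. The sexes were sequenced in separate runs, so sex and sequencing run cannot be told apart, and levels were compared only within a table. By the study's methods no more than 1 pup of a litter entered the sequencing, so animals were taken as replicates.

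Total counts ran from 17845672 to 27513174 per library (median 22651788). There was 1 library that went against its label, that of male nicotine replicate 21. It held 215 CPM (counts of a gene scaled to a common library size) of Xist, which is transcribed from inactive X chromosomes, and 1 read in all over 4 genes of the Y chromosome (Uty, Kdm5d, Eif2s3y and Ddx3y). The other male libraries held at most 0.253 CPM of Xist and at least 2140 reads over those 4 genes. Tests of the markers in males with nicotine are therefore given with and without this library, and other values with it unless stated.

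Microglia settle in the brain early in development and depend on signals through Csf1r, the receptor of the cytokines Csf1 and Il34, for survival. Cx3cr1 receives the neuronal chemokine Cx3cl1, P2ry12 senses nucleotides released by other cells, and the complement proteins C1qa and C1qb, made in brain mainly by microglia, tag synapses and debris for uptake. Trem2 is a lipid receptor that signals through the adaptor Tyrobp, Cd68 is a lysosomal glycoprotein of phagocytes, Itgam is the CD11b chain of complement receptor 3, Aif1 encodes the actin-binding protein Iba1, and Tmem119 is a membrane protein that marks resident microglia. In bulk tissue, fewer microglia and less RNA per microglial cell cannot be told apart.

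All 10 markers were measured with counts from 86 (Aif1) to 7013 (Csf1r) per library. On the scale of CPM per kilobase of transcript, the C1q genes stood at the top of the order in air exposed females, with C1qa at 97.8 ± 8.13 and C1qb at 83.5 ± 6.57 CPM per kilobase (SD, n = 6). Csf1r followed at 64.8 ± 5.33, P2ry12 at 55.6 ± 4.61, Cx3cr1 at 40.9 ± 3.14 and Tmem119 at 26.9 ± 2.75 CPM per kilobase. The lower end of the order was held by Trem2 at 19.4 ± 1.83, Cd68 at 13.0 ± 2.16, Itgam at 11.2 ± 0.933 and Aif1 at 7.46 ± 1.01 CPM per kilobase. In females 3 pairs of neighbours in this order had overlapping libraries, namely C1qa with C1qb, Csf1r with P2ry12, and Cd68 with Itgam. In air exposed males the order was the same, from 95 ± 5.25 CPM per kilobase for C1qa to 6.55 ± 0.700 for Aif1, and no neighbours overlapped. The order depends on the length used: with all annotated exons joined, a length of 4946 in place of 1056 bases moved Trem2 from 19.4 to 4.14 CPM per kilobase in air exposed females, to place 9, and put P2ry12 (49.1) above Csf1r (48.0). These lengths were compared after the values had been seen.

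C1qb (chr4:136436044-136442102, mm9) and C1qa (chr4:136451832-136454718) are neighbours, both on the minus strand. Trem2 lies at chr17:48485726-48493472 on the plus strand. P2ry12 (chr3:59020193-59066753, minus strand) lies inside Med12l on the opposite strand, with 0 shared exon bases. Csf1r shares 871 exon bases, 16.7% of its joined exons, with Hmgxb3 on the opposite strand, and it is not stated whether reads were counted by strand, so reads in these bases could come from either gene. How many of the Csf1r counts lie there was not measured.

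Myeloid genes are commonly bound by the factor PU.1, whose DNA element is the PU box. RefSeq promoters (GRCm38.p6) were at hand for 7 of the 10 markers. The PU box letters GAGGAA, searched on both strands in the 250 bases before the start of the gene, occurred in 5 of these 7 (Aif1, C1qb, Cd68, Itgam and Trem2) and in 23.3% of 32851 promoters of the same length. The longer form AGGAAGTG occurred in 0 of 7 and in 3.14% of all promoters. The 3 windows below are those of the genes compared in most detail, with the PU box in capitals. They lie at chr4:136886201-136886450 (C1qb, minus strand), chr17:48346151-48346400 (Trem2, plus strand) and chr3:59262986-59263235 (P2ry12, minus strand), and are written 5′ to 3′ along the gene.
C1qb: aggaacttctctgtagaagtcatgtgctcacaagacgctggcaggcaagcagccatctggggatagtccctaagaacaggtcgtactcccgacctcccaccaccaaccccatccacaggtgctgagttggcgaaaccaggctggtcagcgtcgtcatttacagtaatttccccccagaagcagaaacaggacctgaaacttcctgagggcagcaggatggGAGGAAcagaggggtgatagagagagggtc
Trem2: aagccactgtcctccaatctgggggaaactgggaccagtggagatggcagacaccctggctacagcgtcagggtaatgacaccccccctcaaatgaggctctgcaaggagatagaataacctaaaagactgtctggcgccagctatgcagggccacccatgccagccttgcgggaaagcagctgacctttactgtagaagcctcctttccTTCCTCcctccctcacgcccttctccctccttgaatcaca
P2ry12: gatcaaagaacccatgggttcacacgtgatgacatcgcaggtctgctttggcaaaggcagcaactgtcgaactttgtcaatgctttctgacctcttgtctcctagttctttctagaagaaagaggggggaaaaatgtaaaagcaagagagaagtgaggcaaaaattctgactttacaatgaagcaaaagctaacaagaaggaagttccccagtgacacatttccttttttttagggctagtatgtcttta
In C1qb the box begins 30 bases and in Trem2 40 bases before the start of the gene, and these letters do not occur in the P2ry12 window. A match describes letters only.

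The first question was whether the markers differed between exposed animals and air exposed controls. None of the 10 passed the threshold in any comparison: the quasi-likelihood test of edgeR (adjusted p under 0.01 over all genes tested) called 0 of 10 with nicotine and 0 of 10 without nicotine in females, against 4.29% and 12.1% of all 15158 genes. In males it called 0 of 10 in both, against 0.0% and 13.6% of 15293 genes. DESeq2 called 0 of 10 in all of these comparisons, against 8.7%, 17.1%, 0.917% and 17.2% of genes in the same order. At an adjusted p under 0.05, edgeR called 0 of 10 in each of the 4, against 12.5% and 25.0% of genes in females and 0.379% and 24.7% in males. At an unadjusted p under 0.05 the counts were 0 and 0 of 10 in females (28.1% and 36.4% of genes) and 0 and 3 of 10 in males (14.4% and 36.0%). The log2 fold change lay above 0 for 5 and 4 of 10 markers in females (51.0% and 52.1% of genes) and for 3 and 5 of 10 in males (52.8% and 53.9%). For no marker did the libraries of an exposed group lie wholly outside those of the controls, which was so for 6.67% and 10.7% of genes in females and 2.05% and 12.4% in males. A p that misses the threshold does not show equal levels, and the 95% intervals of the folds against air reached from 0.811 to 1.28 over the 10 markers and 4 comparisons. Without the library labelled male nicotine replicate 21, edgeR and DESeq2 again called 0 of 10 in males with nicotine against air. Over all 15293 genes they called 0 and 95. At an unadjusted p under 0.05 by edgeR there were 0 of 10 markers and 2003 of all genes. The log2 fold changes of the 10 markers there ran from -0.09 to 0.15 in place of -0.11 to 0.10.

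**Figure D1:**
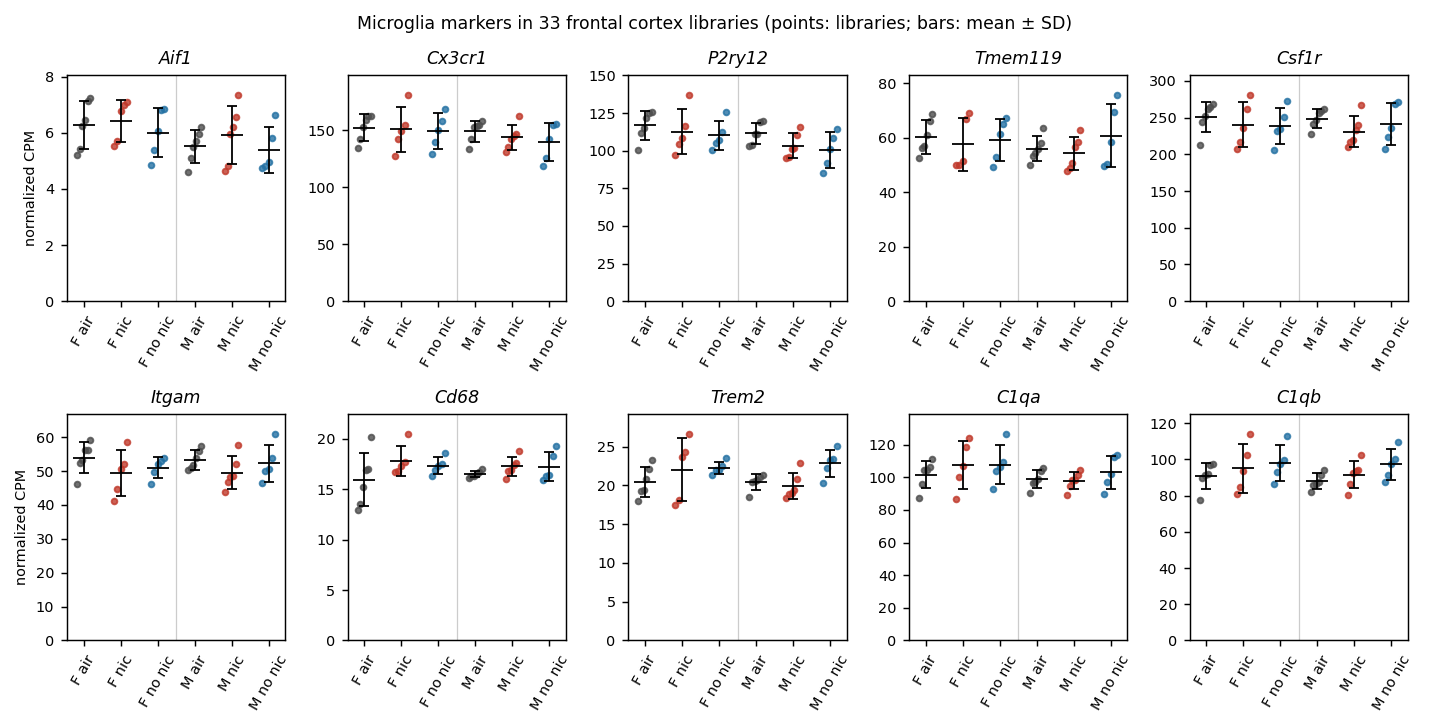
Normalized CPM (vertical axis, from 0) of each marker in the 33 libraries, by group (F female, M male, nic with nicotine, no nic without nicotine), with mean ± SD as bars. Exposed libraries overlap the air exposed controls for each of the 10 genes.

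Among the receptors, P2ry12 had the lowest log2 fold change in males without nicotine. In females its level was 101 to 126 CPM in air (median 118), 117, 97.2, 137, 104 and 109 CPM in the 5 animals exposed with nicotine, and 125, 113, 105, 107 and 100.2 CPM in the 5 exposed without nicotine. All 3 female groups overlapped, and the log2 fold change was -0.05 (SE 0.08) with and -0.08 (SE 0.08) without nicotine. In males P2ry12 ran from 103 to 120 CPM in air (median 111) and from 94.9 to 116 CPM with nicotine (median 102), and was 91.5, 85.5, 101, 108 and 115 CPM without nicotine. Of the 5 males exposed without nicotine, 3 lay below the lowest control, and the log2 fold change was -0.15 (SE 0.07, unadjusted p = 0.0431, adjusted p = 0.125 by edgeR). With nicotine the value was -0.11 (SE 0.07), and -0.09 without replicate 21, the lowest library of its group, whose removal left a range of 95.8 to 116 CPM.

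Csf1r, the most highly counted marker, ran from 213 to 268 CPM in female controls (median 257). It was 236, 207, 281, 217 and 262 CPM with nicotine and 272, 234, 251, 232 and 205 CPM without nicotine. The lowest female control, replicate 5, lay within the range of both exposed groups. In males it ran from 227 to 261 CPM in air (median 252) and from 210 to 267 CPM with nicotine (median 226), and was 236, 207, 224, 271 and 268 CPM without nicotine. The log2 fold changes of Csf1r against air were -0.06 and -0.07 (SE 0.08 each) in females with and without nicotine, and -0.11 and -0.04 (SE 0.07 each) in males. Without male nicotine replicate 21, the male range with nicotine was 216 to 267 CPM and the log2 fold change -0.08.

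Cx3cr1, Itgam and Tmem119 gave a similar picture. Cx3cr1 had log2 fold changes from -0.10 (males without nicotine) to -0.01 (females with nicotine). Itgam lay below 0 in all 4 comparisons with air, from -0.13 to -0.03, while its libraries overlapped in each. Tmem119 varied most among the receptors in males exposed without nicotine, from 49.5 CPM (replicate 2) to 75.7 CPM (replicate 7), a coefficient of variation of 19.1% against 8.26% in male controls. Its log2 fold change there was 0.12 (SE 0.10), and the other 3 comparisons with air gave -0.07 to -0.03.

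Trem2 was the marker with the smallest adjusted p. In males it ran from 18.5 to 21.4 CPM in air (median 20.6) and from 18.4 to 22.8 CPM with nicotine (median 19.2, and from 18.9 without replicate 21), and was 22.2, 23.2, 20.3, 25.1 and 23.4 CPM without nicotine. Of the 5 males exposed without nicotine, 4 lay above the highest control, and replicate 4 lay among the controls. The log2 fold change without nicotine was 0.16 (SE 0.06, unadjusted p = 0.0172, adjusted p = 0.0636 by edgeR). Leaving out replicate 4 of that group gave 0.20 with an adjusted p of 0.0287 by edgeR, and leaving out replicate 5 gave 0.13 with 0.169. In females Trem2 ran from 18 to 23.2 CPM in air (median 20.1), and was 23.7, 18.1, 24.3, 17.5 and 26.6 CPM with nicotine and 23.5, 21.9, 21.3, 22 and 22.6 CPM without. The animals exposed with nicotine spread to both sides of the controls, and the log2 fold changes were 0.11 and 0.12 (SE 0.10 each).

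Cd68 ran from 12.9 to 20.2 CPM in female controls (median 16.1). It was 16.7, 16.8, 17.7, 17.3 and 20.4 CPM with nicotine and 17.5, 16.9, 16.3, 18.6 and 17.3 CPM without nicotine. The female controls spread more widely than either exposed group, with replicate 1 high and replicates 5 and 6 low. The log2 fold changes of Cd68 were 0.16 and 0.12 (SE 0.09 each) in females and 0.06 and 0.06 (SE 0.05 each) in males, where the controls lay closely together at 16.1 to 17 CPM. Aif1 had the lowest counts and the widest intervals, with log2 fold changes from -0.06 to 0.10 against air and SE of 0.11 to 0.12.

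C1qb ran from 77.7 to 97.3 CPM in female controls (median 91.5). It was 93.6, 84.8, 114, 80.7 and 102 CPM with nicotine and 113, 92.9, 99.9, 97.6 and 86.3 CPM without nicotine. Of the 5 females exposed without nicotine, 3 lay above the highest control, and the log2 fold changes were 0.07 and 0.11 (SE 0.09 each). In males C1qb ran from 82.0 to 94.0 CPM in air (median 87.0) and from 80.3 to 102 CPM with nicotine (median 93.2, and from 86.2 without replicate 21), and was 97.4, 87.5, 91.6, 110 and 99.97 CPM without nicotine. The log2 fold change in males without nicotine was 0.14 (SE 0.06, unadjusted p = 0.0283, adjusted p = 0.0914 by edgeR). C1qa, its neighbour on the chromosome, had log2 fold changes from -0.01 to 0.08 against air, with overlap in each comparison.

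**Figure D2:**
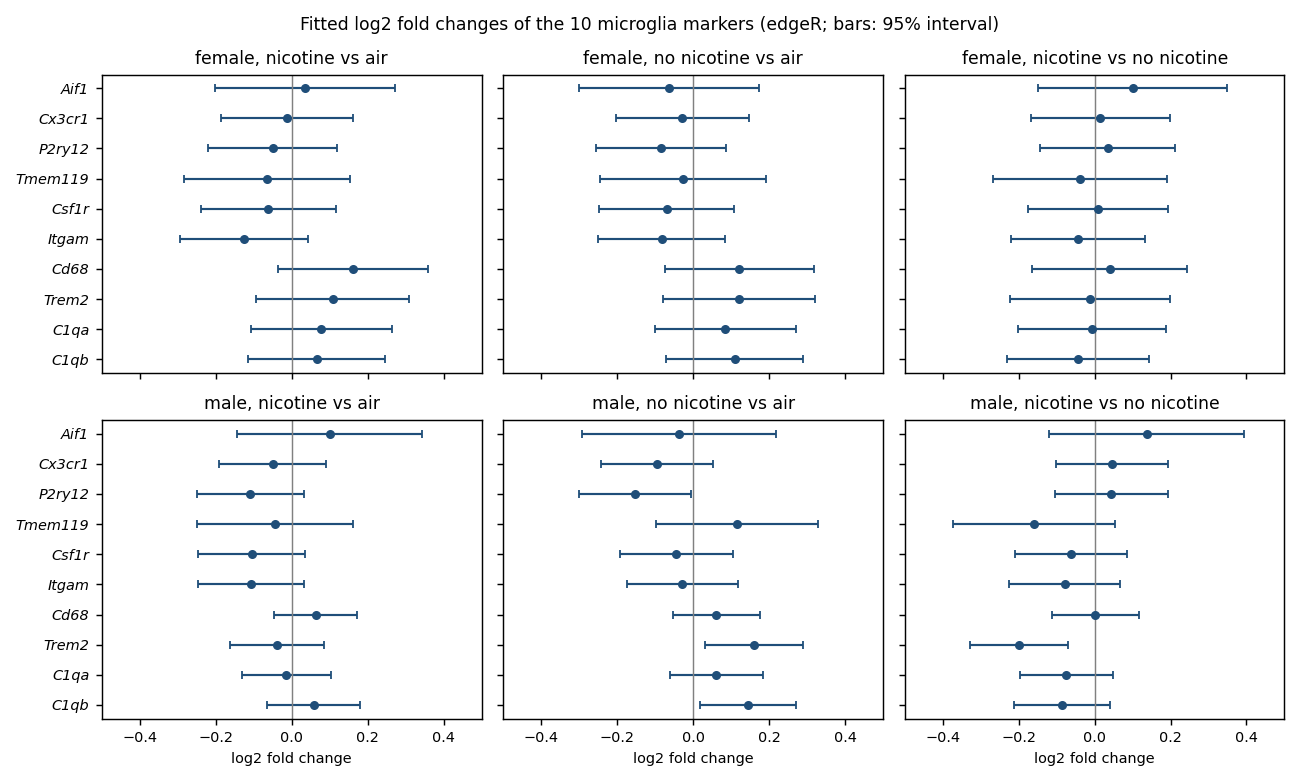
Fitted log2 fold changes (horizontal axis) of the 10 markers with 95% intervals, for 3 comparisons in females (top) and males (bottom). All intervals include 0 except those of P2ry12, Trem2 and C1qb in males without nicotine against air and of Trem2 in males with against without nicotine, before adjustment over all genes.

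The second question was whether nicotine in the aerosol made a difference among exposed animals. These comparisons share their exposed animals with those above. edgeR called 0 of 10 markers in both sexes, against 0.0% of genes in females and 0.248% in males, and DESeq2 called 0 of 10 (0.0% and 2.96% of genes). At an adjusted p under 0.05, edgeR called 0 of 10 (0.0% and 3.56% of genes). At an unadjusted p under 0.05 the counts were 0 of 10 in females (8.36% of genes) and 1 of 10 in males (20.1%), and no marker's groups lay apart (1.01% and 2.15% of genes). The 1 marker was Trem2 in males, with a log2 fold change of -0.20 (SE 0.06, adjusted p = 0.0762 by edgeR) with against without nicotine. Without male nicotine replicate 21 it was -0.18 with an adjusted p of 0.149 by edgeR. Over the whole table edgeR then called 5 in place of 38 genes, and DESeq2 called 277 genes and again 0 of 10 markers. Without male nicotine replicate 15, the highest of its group, the value of Trem2 was -0.24 with an adjusted p of 0.0256 by edgeR. The 95% intervals of the folds in these comparisons reached from 0.772 to 1.31 over the 10 markers.

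Whether the change against air differed between the 2 tables was tested in a fit of all 33 libraries on 15105 genes. edgeR called 0 of 10 markers with nicotine and 0 of 10 without, against 0.0% and 0.0% of genes, and 0 of 10 in both had an unadjusted p under 0.05 (6.47% and 4.91% of genes). The smallest unadjusted p was that of Trem2 with nicotine, where the female minus male difference of log2 fold changes was 0.16 (95% interval -0.08 to 0.39, unadjusted p = 0.183, adjusted p = 0.855 by edgeR), and 0.13 without male nicotine replicate 21.

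The summed level of all 10 markers differed little between groups relative to its spread. It was 869 ± 69.2 CPM in female controls (SD, n = 6), 860 ± 110 CPM with nicotine (n = 5) and 860 ± 77.2 CPM without nicotine (n = 5). In males it was 848 ± 43.6 CPM in air (n = 6), 815 ± 57.0 CPM with nicotine (n = 6) and 840 ± 90.9 CPM without nicotine (n = 5), and the nicotine group without replicate 21 was at 829.1 ± 49.7 CPM (n = 5). Single libraries stood low or high for most markers at once: female air replicate 5 was lowest of its group in 9 of 10 markers, female no nicotine replicate 5 in 8, male air replicate 37 in 7, and the library labelled male nicotine replicate 21 in 8, while male nicotine replicate 15 was highest in 8. The median coefficient of variation over the markers was 5.50% in male controls, 8.31% in female controls and 13.6% in females exposed with nicotine.

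Ratios between markers within a library were also compared. They were chosen after the values had been seen and are given without a test. Over the 45 pairs of markers, the ratio of the exposed libraries lay wholly outside that of the controls for 1 pair (2.22%) with and 3 pairs (6.67%) without nicotine in females, and for 2 (4.44%) and 7 pairs (15.6%) in males. Over all pairs of genes tested, these shares were 6.41% and 10.3% in females and 1.58% and 11.3% in males. Those of the marker pairs lay below them in females and above them in males, and with 45 pairs that share genes nothing particular to the markers is read from them. Without male nicotine replicate 21 the count in males with nicotine was again 2, and the share over all pairs of genes was not computed without it. There were 2 pairs that lay apart without nicotine in both tables, namely C1qa with P2ry12 and C1qb with P2ry12. The share of all pairs of genes that lay apart in both tables was not computed. Both pairs hold P2ry12, and C1qa and C1qb varied closely together (r = 0.925 after group means were subtracted), so they are not separate results.

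The ratio of C1qb to P2ry12 was 0.727 to 0.807 in female controls (median 0.785). It was 0.803, 0.872, 0.831, 0.773 and 0.942 in females exposed with nicotine and 0.903, 0.825, 0.952, 0.909 and 0.861 in females exposed without nicotine. All 5 females without nicotine lay above the 6 controls, and those with nicotine overlapped them. In males the ratio was 0.769 to 0.836 in air (median 0.787), 0.846 to 0.980 with nicotine (median 0.869), and 1.06, 1.02, 0.905, 1.01 and 0.873 without nicotine. Both exposed male groups lay above the controls, and the library labelled male nicotine replicate 21, at 0.846, lay near the lower end of its group. The ratio of C1qa to P2ry12 was 0.832 to 0.913 in female and 0.867 to 0.929 in male controls, against 0.923 to 1.02 and 0.961 to 1.11 in animals exposed without nicotine. With nicotine it was 0.834 to 1.09 in females and 0.895 to 1.06 in males, and both overlapped their controls.

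Summed over roles, the ratio of C1qa and C1qb to the receptors and Tmem119 was 0.304 ± 0.00913 in female controls (SD, n = 6), 0.331 ± 0.0199 with nicotine (n = 5) and 0.338 ± 0.0128 without nicotine (n = 5). In males it was 0.302 ± 0.00712 in air (n = 6), 0.326 ± 0.0158 with nicotine (n = 6, or 0.327 ± 0.0172 without replicate 21) and 0.338 ± 0.0131 without nicotine (n = 5). All libraries without nicotine, from 0.325 in females and 0.317 in males upward, lay above all controls of their table, which reached 0.315 and 0.313. Without nicotine, 10.3% of all pairs of genes tested in females and 11.3% in males had ratios wholly outside those of the controls. The share for comparable sums of other genes was not computed. This ratio was also chosen after the values had been seen. Its sums hold C1qa, C1qb and P2ry12, so it is not a result separate from the pairs above.

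**Figure D3:**
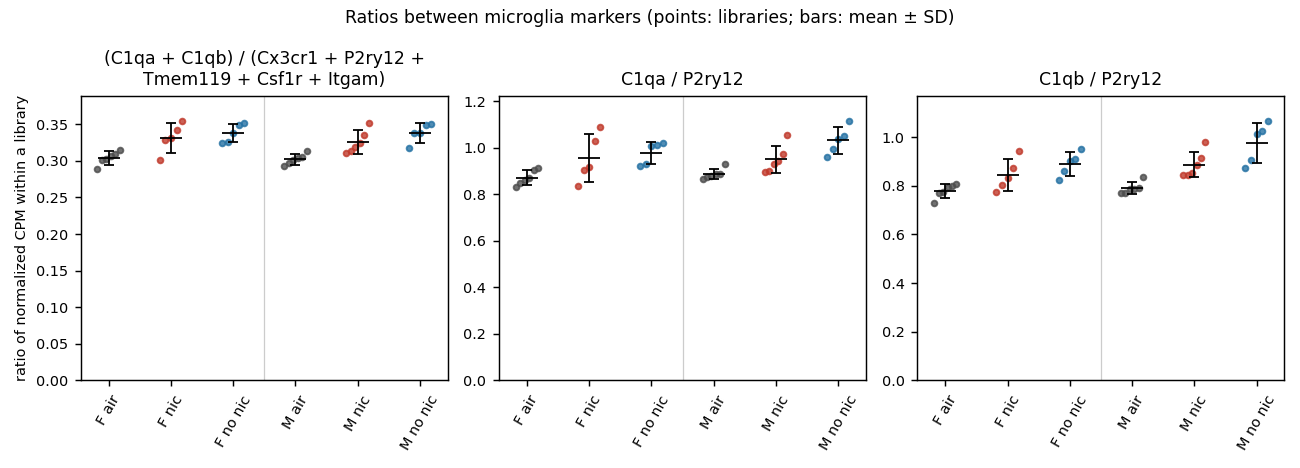
Ratios of normalized CPM within a library (vertical axis, from 0) for the C1q genes over the receptors and Tmem119 (left), C1qa over P2ry12 (middle) and C1qb over P2ry12 (right), by group, with mean ± SD as bars. In all 3 panels the 5 female and 5 male libraries without nicotine lie above the controls of their sex. The panels share genes, so they are not separate results.

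The markers varied together from animal to animal. After each group mean was subtracted, log2 CPM of all 45 pairs correlated positively over the 33 libraries, with Pearson's r from 0.444 to 0.945 (median 0.652). These are descriptions, since the genes share libraries and scaling. The highest value was that of Cx3cr1 with Csf1r and the lowest that of Cd68 with C1qb. Csf1r followed the mean of the other 9 markers most closely (r = 0.936), and Cd68 least (r = 0.615).

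**Figure D4:**
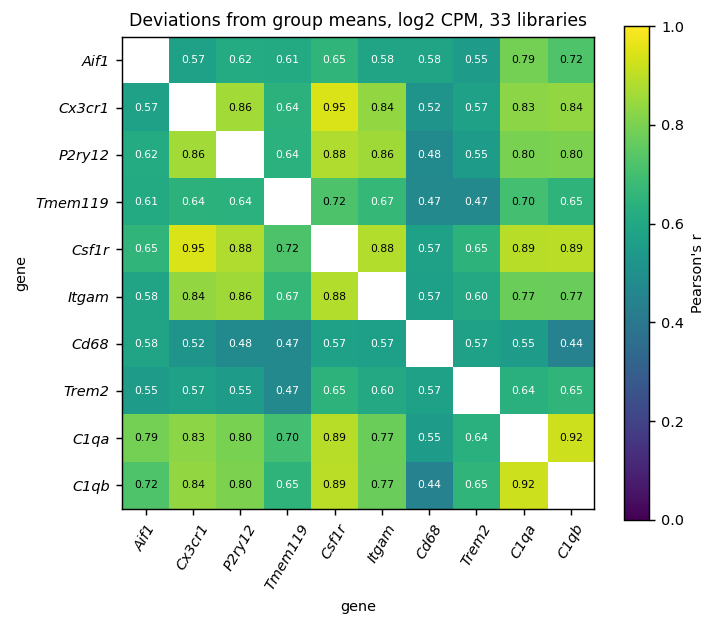
Pearson's r between pairs of markers over the 33 libraries, from log2 CPM after each group mean was subtracted; both axes list the genes and the color runs from 0 to 1. Cd68, Trem2 and Tmem119 show the lower values, and Csf1r, Cx3cr1, C1qa and C1qb the higher ones.

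The 5 genes outside the list with the pattern most like the mean of the markers were Laptm5 (r = 0.952, Spearman's rho 0.951), 4632428N05Rik (0.940, 0.931), Itgb5 (0.913, 0.930), Siglech (0.911, 0.902) and C1qc (0.910, 0.904), over 33 libraries. Laptm5, a lysosomal membrane protein of blood-lineage cells, Siglech, a microglial lectin, and C1qc, the partner chain of C1qa and C1qb, are themselves known microglial genes. Genes of other cell types also followed the markers: the median r with their mean was 0.721 over 10 endothelial and 0.605 over 10 astrocyte genes. It was 0.721 over 16 other homeostatic microglial genes and 0.687 over 20 myeloid genes, so this likeness was not particular to microglial genes. The median r was 0.0071 over all 15100 genes compared, -0.0613 over 10 myelin genes and 0.267 over 16 genes of cortical glutamatergic neurons.

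Other microglial genes were examined as a list of 16 homeostatic genes. With nicotine, 0 of 16 passed by edgeR in either sex, also without male nicotine replicate 21. Without that library DESeq2 called 1 of 16, against 95 of all 15293 genes. Without nicotine, 2 of 16 rose in females and 3 of 16 in males, and 0 fell. Over all genes tested, edgeR called 5.03% higher and 7.03% lower in these females and 6.15% higher and 7.47% lower in these males; with nicotine it called 1.98% higher and 2.32% lower in females and 0.0% either way in males. Sparc, a matrix protein also made by astrocytes and endothelium, rose from 571 ± 99.4 to 1047 ± 253 CPM in females (log2 fold change 0.87, SE 0.15, adjusted p = 0.000969 by edgeR, 5 of 5 above all controls) and from 574 ± 83.1 to 995 ± 109 CPM in males (0.79, SE 0.09, adjusted p = 2.15e-05). With nicotine Sparc had 0.48 in females and 0.43 in males (adjusted p = 0.0394 and 0.0416 by edgeR), with all males above the controls. Gpr56, an adhesion receptor of several glial types, rose in both sexes without nicotine (log2 fold changes 0.44 and 0.38). Cst3, a secreted protease inhibitor abundant in astrocytes and microglia, passed in males (0.26, adjusted p = 0.000923 by edgeR) and had an adjusted p of 0.0691 in females. The median log2 fold change of the list was -0.03 in females and 0.03 in males, against 0.01 and 0.02 over all genes tested. Of 20 myeloid transcription and signalling genes, 0 passed in any comparison with air. The most abundant of these, Laptm5 and the lipid phosphatase gene Inpp5d, had 0.08 and -0.12 in males without nicotine.

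The ligands and partners of the marker receptors were a list of 7. Il34, a Csf1r ligand made by neurons, fell in males without nicotine from 66.7 ± 3.71 to 53.4 ± 4.42 CPM (log2 fold change -0.32, SE 0.06, adjusted p = 0.000810 by edgeR), and its female value was -0.24 (adjusted p = 0.0410). Csf1, the other Csf1r ligand, rose in the same males from 24.7 ± 1.11 to 29.3 ± 2.39 CPM (0.25, SE 0.06, adjusted p = 0.0042 by edgeR), with 0.20 (adjusted p = 0.0952) in females. Cx3cl1, the neuronal ligand of Cx3cr1, fell in females without nicotine from 1513 ± 164 to 1115 ± 136 CPM (-0.44, SE 0.10, adjusted p = 0.0046 by edgeR), and its male value was -0.26 (adjusted p = 0.0132). Tyrobp, Tgfb1, Apoe and Itgb2 did not pass in any comparison with air. Apoe, a lipid carrier made mainly by astrocytes, had 0.19 in females and 0.17 in males without nicotine (adjusted p = 0.0809 and 0.0281 by edgeR), Tgfb1 had -0.14 and -0.08, and Tyrobp, the adaptor of Trem2, had 0.14 (SE 0.06, adjusted p = 0.0988 by edgeR) in males without nicotine. With nicotine 0 of 7 passed by edgeR in either sex, also without male nicotine replicate 21. Over all genes tested, edgeR called 4.29% with and 12.1% without nicotine in females, and 0.0% and 13.6% in males.

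Of 9 complement genes tested outside the list of markers, C4b rose in females without nicotine from 8.72 to 13.0 CPM (log2 fold change 0.58, SE 0.12, adjusted p = 0.0035 by edgeR), and the others did not pass. C1qc had 0.06 (SE 0.08) in these females and 0.10 (SE 0.06) in males, and C1qbp, a mitochondrial protein named for binding C1q, had 0.03 and -0.01. Of 14 genes of lysosomes and antigen presentation, Lamp1 and Cd74 rose in females without nicotine and Lamp1, Ctsd and Cd63 in males, with log2 fold changes of 0.13 to 0.79. Ctsb, the most abundant of these 14, had 0.08 (adjusted p = 0.177 by edgeR) in males without nicotine. Of 15 genes known from microglia around amyloid plaques, Cd9, which oligodendrocytes also express, rose in females with and without nicotine (0.29 and 0.32), and Cd9, Csf1 and Ctsd rose in males without nicotine. Of 16 genes of inflammatory cytokines and sensors, 10 were tested in females and 11 in males. Ptgs2, an inducible enzyme of prostaglandin synthesis that neurons also express, fell without nicotine in both sexes (log2 fold changes -0.91 and -0.92), and the others did not pass, among them Nfkbia, an inhibitor of NF-kB, at -0.16 and 0.16. Tnf and Il6 had at most 5 counts in every library. Of these genes, C4b, Lamp1, Cd74, Cd63, Cd9, Ptgs2, Gpr56 and others that passed were named after their values had been seen. Over all genes tested, edgeR called 4.29% with and 12.1% without nicotine in females, and 0.0% and 13.6% in males.

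Markers of other cells differed in the same animals. Of 16 markers of cortical glutamatergic neurons, 12 fell and 1 rose in females without nicotine and 11 fell and 1 rose in males without nicotine. With nicotine 1 fell and 1 rose in females and 0 passed in males. Over all genes, edgeR called 12.1% and 13.6% without nicotine in females and males, and 4.29% and 0.0% with nicotine. At an unadjusted p under 0.05 there were 15 and 10 of 16 with nicotine, against 28.1% and 14.4% of genes. In males without replicate 21 there were 8 of 16, against 2003 of 15293 genes. The summed level of the 16 neuron markers was 8504 to 10790 CPM in female controls against 5889 to 8530 CPM with and 4496 to 8366 CPM without nicotine. In males it was 7953 to 9094 CPM in air, 6597 to 7523 CPM with and 4435 to 7114 CPM without nicotine, so both exposed male groups lay below the controls. Of 10 myelin markers, 9 rose in each sex without nicotine, 10 in females with nicotine and 0 in males with nicotine, also without replicate 21. Of 10 genes of striatal projection neurons, 1 rose in females and 3 in males without nicotine and 3 in females with nicotine. Of 10 astrocyte and 10 endothelial markers, 0 passed by edgeR in any comparison with air. In females with, females without, males with and males without nicotine, 1, 2, 0 and 4 astrocyte and 0, 0, 1 and 2 endothelial genes had an unadjusted p under 0.05. The shares of all genes at that p were 28.1%, 36.4%, 14.4% and 36.0% in the same order. Slc17a7, the vesicular glutamate transporter of cortical excitatory neurons, fell without nicotine from 2523 to 1388 CPM in females and from 2257 to 1108 CPM in males (log2 fold changes -0.86 and -1.03). With nicotine it was at 1644 and 1691 CPM (-0.62 and -0.42, adjusted p = 0.0343 and 0.15 by edgeR), with all females below the controls and males overlapping. Mbp, a myelin protein, rose from 4427 to 6644 and from 5111 to 8589 CPM (0.59 and 0.75). The part of these markers in the ratios and ligands was not tested.

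**Figure D5:**
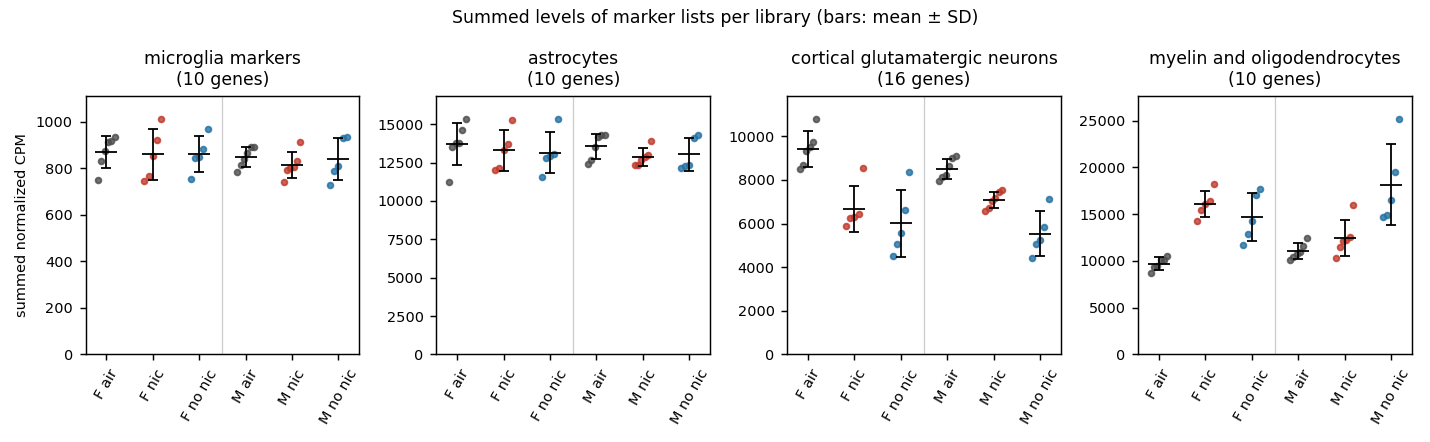
Summed normalized CPM (vertical axes, from 0, with a separate scale each) of the microglia, astrocyte, cortical glutamatergic neuron and myelin lists in each library, by group, with mean ± SD as bars. Neuron sums lie lower and myelin sums higher without nicotine than in air in both sexes, while microglia and astrocyte sums overlap.

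Cells that share markers with microglia were also checked. Of 10 markers of border macrophages, 9 were tested and 0 passed by edgeR. In the comparisons with air, where 0.0% to 13.6% of all genes passed, 0 to 3 of these 9 had an unadjusted p under 0.05. The share of all genes at that p was 14.4% to 36.4%. Stab1 and Mrc1, scavenger receptors and the most abundant of the list, had -0.23 and -0.76 (adjusted p = 0.156 and 0.0198 by edgeR) in males without nicotine. The summed level of the list was 47.3 to 73.1 CPM in male controls and 37.8 to 56.9 CPM in males without nicotine, and 52.3 to 71.6 against 46.5 to 80.8 CPM in females. Of 13 markers of blood leukocytes and red cells found, 8 in females and 9 in males had at most 5 counts in every library, among them Cd3e and Ly6c2. An exception was Alas2, the heme synthesis enzyme of red cell precursors, with group means of 9.85 to 14.3 CPM, above those of Aif1. It did not pass in any comparison with air, with log2 fold changes from -0.54 to -0.11. The sum over the list, most of it Alas2, stayed between 7.02 and 26.8 CPM.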

How the data were processed

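Per the labels and the study's methods, single reads were mapped by the authors to the mm9 mouse transcriptome with Bowtie. The methods state that PCR duplicates were then removed (SAMtools) and genes counted (HTSeq). The values used here are the deposited raw read counts, 1 table per sex. C1qa reached 3101 of these counts on 1040 exon bases, more than 1 read per base and strand. The deposited counts therefore still hold reads that share a start, and how duplicates were treated in them is not known. Of 34 columns, 33 were matched to a labelled sample and 1 was not used; the authors' normalized tables were not used here. Genes whose CPM summed over a table reached 5 were tested in edgeR 4.0.16 (quasi-likelihood fit, TMM, 3 groups of a sex in 1 fit, Benjamini-Hochberg, adjusted p under 0.01), with DESeq2 1.42.0 as an alternative. CPM used library sizes after the filter, and sums over lists the unfiltered totals. Ratios over all pairs of genes used log2 CPM with a prior count of 1, under which the marker pairs gave the same counts as from CPM. The procedure was tested on simulated data. CPM per kilobase used, per gene, the transcript with both ends annotated as untranslated and the longest coding sequence (GENCODE, mm9); this length was chosen after 2 others had been tried. The rule for named genes was all 10 markers, the 2 most abundant of each other list, 6 partners (Tyrobp, C1qc, Csf1, Il34, Cx3cl1 and Tgfb1) and the 5 most alike in pattern; of lists of other cell types not all genes so chosen are printed, and genes that passed were added after their values were seen. The markers and lists were chosen with earlier results of these data known.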

Additional observations from a re-analysis of the deposited data

Results flagged for a closer look

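In 60 groups of values, 1 for each marker and group of animals, 3 held a single library far from the others by Dixon's criterion at the 95% level; about 1 in 20 groups is marked by chance. Cd68 in female nicotine replicate 6 was at 20.4 CPM, and the next library of its group at 17.7 CPM. C1qb in female air replicate 5 was at 77.7 CPM, below the next at 90.0 CPM, and this library was lowest in 9 of 10 markers. Trem2 in male air replicate 38 was at 18.5 CPM, below the next at 20.4 CPM.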

How the results depend on the processing

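The count of 0 of 10 markers stayed at 0 in every comparison between groups of a table under each alternative run alone. These were a threshold of 0.05, DESeq2, its size factors, upper quartile factors, no filter and a stricter filter on low counts, only the groups compared, robust quasi-likelihood and, in males, DESeq2 without male nicotine replicate 21 (both chosen after seeing the data) and each library left out. For the difference between tables only the threshold of 0.05, the size factors of DESeq2 and each library left out were run, and the count stayed at 0. With both a threshold of 0.05 and 1 library left out, 3 markers passed: in males without nicotine against air Trem2 without replicate 4 of the exposed group (adjusted p = 0.0287 by edgeR), P2ry12 without replicate 7 (0.0379) and C1qb without replicate 3 (0.0454), and in males with against without nicotine Trem2 without male nicotine replicate 15 (0.0256). Of 710 alternative values of single markers, 675 kept their direction and side of the threshold and 35 turned in sign, over 34 results, all with a main size of at most 0.067 and a turned size of at most 0.064 on the log2 scale; the cause was not tested. Of these, Cx3cr1 in females with nicotine against air, was 0.008 with upper quartile factors, and the rest turned with 1 library left out, where the log2 fold changes ran over the following ranges. For females with nicotine against air these were Aif1 -0.013 to 0.085, Cx3cr1 -0.086 to 0.041 and C1qb -0.007 to 0.118. For females without nicotine against air these were Cx3cr1 -0.077 to 0.015 and Tmem119 -0.081 to 0.026. For females with against without nicotine these were Cx3cr1 -0.057 to 0.075, P2ry12 -0.043 to 0.087, Tmem119 -0.108 to 0.015, Csf1r -0.051 to 0.062, Itgam -0.111 to 0.02, Cd68 -0.011 to 0.066, Trem2 -0.086 to 0.064, C1qa -0.062 to 0.064 and C1qb -0.115 to 0.014. For males with nicotine against air these were C1qa -0.038 to 0.011. For males without nicotine against air these were Aif1 -0.12 to 0.003, Csf1r -0.09 to 0.005 and Itgam -0.088 to 0.011. For males with against without nicotine these were Cx3cr1 -0.004 to 0.088, P2ry12 -0.006 to 0.096 and Cd68 -0.024 to 0.045. For the difference between tables with nicotine these were Aif1 -0.114 to 0.012, Cx3cr1 -0.03 to 0.1, P2ry12 -0.014 to 0.115, Tmem119 -0.091 to 0.034, Csf1r -0.01 to 0.102, Itgam -0.081 to 0.048 and C1qb -0.058 to 0.07. For the difference between tables without nicotine these were Aif1 -0.073 to 0.063, Csf1r -0.074 to 0.031, Itgam -0.09 to 0.01, Trem2 -0.071 to 0.004, C1qa -0.037 to 0.079 and C1qb -0.089 to 0.019. Female replicate numbers did not pair the samples: of 14 pairs with the same number 4 had a correlation of deviations over 0.1 (-0.273 to 0.266), and with the replicate number as a block 0 of 10 markers were called in females. CPM per kilobase in female controls moved by more than 1 SD with the length of all joined exons for Trem2, Csf1r, P2ry12, Itgam and Aif1, and with that of the longest coding sequence for Cd68 (15.8). Aif1, with 86 to 173 reads per library, was limited most by depth.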
